A study of Mus musculus with 98 samples.

Results

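The arcuate nucleus (ARC), a region at the base of the hypothalamus that senses hormones and nutrients and helps to control feeding, was sampled around the day in mice with chimeric livers, and the genes with a daily rhythm common to both kinds of mouse are described here. All 22 ARC libraries of the 98 libraries in the series were used, 12 from mice with murine hepatocytes (Mu arm) and 10 from mice with human hepatocytes (Hu arm). For each gene, 1 cosine of a 24 h period shared by both arms was fitted, with a separate mean level per arm. Of 15079 genes with enough counts, 683 genes (4.53%) passed a Benjamini-Hochberg adjusted p-value of 0.05 in edgeR's quasi-likelihood test. Without adjustment 2913 genes (19.3%) were under 0.05.

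Both arms were male FRGN mice about 10 weeks old, which lack Fah, Rag2 and Il2rg on a non-obese diabetic background. Loss of Fah, an enzyme of tyrosine breakdown, kills the host's own hepatocytes unless the drug nitisinone is given, and this is what lets transplanted hepatocytes take over the liver. Loss of Rag2 and Il2rg leaves the mice without mature lymphocytes. Donor hepatocytes were injected into the spleen, and both arms shared the drug cycles, antibiotic and dextrose in the water and a high-energy diet. Hu mice had been selected for more than 70% repopulation. The mutations affect every cell of the host, so no library comes from a mouse with an intact immune system. The brain cells are mouse cells in both arms, and the series asks how hepatocyte clocks bear on the timing of rhythms elsewhere in the body. Sampling was at ZT (zeitgeber time, counted in hours from lights on) 2, 6, 10, 14, 18 and 22. The Mu arm has 2 libraries at each time, and the Hu arm has 2 at ZT 2, 10, 14 and 18 but 1 at ZT 6 and 1 at ZT 22. The labels do not say that each library is a separate mouse, so the p-values measure the spread between these libraries.

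Total counts per ARC library ran from 23.7 to 47.1 M (where M stands for 1000000 counts), with a median of 28.96 M. All values below are CPM, counts scaled to a library of 1000000 after scaling of library sizes, and all are levels in a library unless a log2 amplitude is named. Exceptions are the sums of hepatocyte genes and the levels of Alb, Fgb and Mup3, which were scaled by total counts alone. An amplitude is the log2 distance from the mean of the fitted cosine to its peak, with its standard error (SE) over the 22 libraries. The defining peptide genes of ARC neurons were present in every library: Pomc at 18.5 to 119.5 CPM, Npy at 8.05 to 67.7, Cartpt at 53.6 to 102 and Agrp at 2.07 to 26.5. Agrp and Npy were highest in 1 library, Mu ZT 18 replicate 1. Marker genes of other cells that a dissection could hold were summed as well. The largest of the sums given here was that of 13 markers of neighbouring hypothalamic nuclei, such as Pmch, Avp and Oxt. They summed to 861 to 1579 CPM, against 131 to 272 CPM for 6 ARC neuron markers. The share of ARC tissue in a library was not tested. Red blood cell genes (Hba-a1, Hbb-bs, Hbb-bt and Alas2, with Hba-a2 near 0) summed to 28.6 to 273 CPM, with the highest single libraries at ZT 14 and ZT 18. Pituitary genes summed to 7.47 to 54.2 CPM, and Gh, Prl, Tshb and Pitx1 had medians under 1 CPM. In all 4 libraries of ZT 18, in both arms, 14 hepatocyte genes such as Alb, Apoa1 and Fgb summed to 29.96 to 77.1 CPM, against 1.60 to 13.85 CPM in the other 18 libraries. In SCN libraries of ZT 18 the same 14 genes summed to 1.33 to 2.15 CPM. This list was chosen after the values of Apoa1 and Apoh had been seen. Without all 4 libraries of ZT 18, 542 genes were called. Leaving out 1 of them gave 449 (Hu replicate 1, with the most of these transcripts), 692 (Hu replicate 2), 814 (Mu replicate 1) and 521 (Mu replicate 2). In bulk tissue, fewer cells of a type and less RNA per cell cannot be told apart.

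The circadian clock of mammalian cells is a transcriptional feedback loop. CLOCK and BMAL1 (the product of Arntl) switch on the Per and Cry genes, whose proteins return to block them, and on Nr1d1 and Nr1d2, whose products (the REV-ERB receptors) repress Arntl. Output factors such as DBP and TEF pass the rhythm on to other genes. Rhythms in brain tissue outside the central pacemaker also follow systemic cues, among them body temperature, glucocorticoids and feeding, which in mice are tied to the dark, active phase. None of these cues was measured in the libraries used here.

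The rhythms were shallow. Among the 683 genes the amplitude had a median of 0.17 and quartiles of 0.13 and 0.24, and a median amplitude corresponds to a 1.27-fold difference between peak and trough. Only 32 genes exceeded 0.5 and 2 genes, Plin4 and Apoa1, exceeded 1. Over all 15079 genes tested the median was 0.068. The SE of a peak time had a median of 0.780 h. The last gene inside the threshold had an adjusted p of 0.0493, and the first outside had 0.0506. Peak times fell into 2 broad groups, as the histogram of peak times shows. From ZT 6 to 8 there were 82 genes (12%) and from ZT 16 to 20 there were 191 (28%), whereas 23 genes (3.37%) peaked from ZT 0 to 2 and 31 (4.54%) from ZT 10 to 12. The fitted peaks of all genes tested had the same 2 humps, less marked, with 10.2%, 21.2%, 6.63% and 6.53% in these spans, so the shape is not particular to the called genes. Over 6 h spans, 125 genes (18.3%) peaked between ZT 0 and 6, 177 (25.9%) between ZT 6 and 12, 191 (28%) between ZT 12 and 18, and 190 (27.8%) between ZT 18 and 24. Over the same 6 h spans the peaks of all genes tested were at 25.1%, 24.6%, 25.9% and 24.4%.

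**Figure D1:**
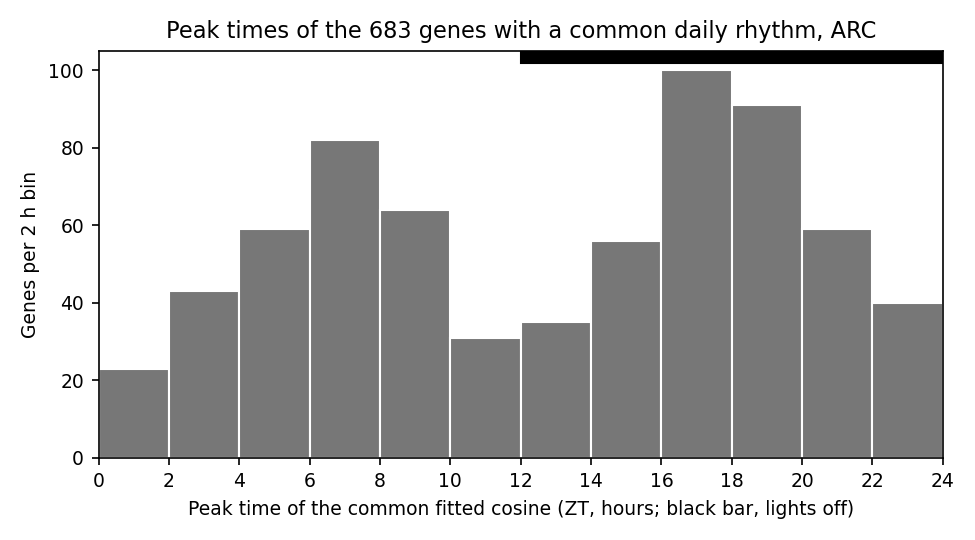
Histogram of the time of the fitted peak (x axis, ZT in hours, 2 h bins) of the 683 called genes in ARC; the y axis counts genes and the black bar marks the dark phase. The bins with most genes are ZT 16 to 18, with 100 genes, ZT 18 to 20, with 91, and ZT 6 to 8, with 82.

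Clock genes followed one another around the day, with called members in 5 of 5 clock lists. Of the activators, 1 of 3 tested passed (Arntl), and of the Per and Cry repressors 4 of 5. Nr1d1 and Nr1d2 were the 2 called of 5 REV-ERB and ROR receptors. Of the PAR bZIP factors and their antagonist, 3 of 4 passed (Dbp, Tef and Nfil3), and of 11 other clock regulators 2 passed (Bhlhe41 and Ciart). Over all lists 12 of 28 clock genes were called, beside 4.53% of all genes.

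Arntl, the activator, was lowest before and after lights off. Its Mu libraries held 24.3 and 26.3 CPM at ZT 10 and 20.6 and 23.96 at ZT 14, and its Hu libraries 20.8 and 22.8 at ZT 10 and 26.98 and 25.1 at ZT 14. At ZT 22 the Mu libraries held 36.7 and 30.7 CPM and the single Hu library 36.99. The levels at ZT 22 lay above all of those at ZT 10 and ZT 14. The fitted peak was at ZT 23.2 ± 0.539 h (SE), with an amplitude of 0.27 ± 0.038 (adjusted p = 5.63e-04). Nr1d1, whose product represses Arntl, was lowest in the night. It was at 68.6, 65.8 and 74.4 CPM in the 3 libraries of ZT 6 and at 39.04, 38.5, 34.8 and 52.1 CPM in the 4 of ZT 18, without overlap. It peaked at ZT 6.81 ± 0.567 h with an amplitude of 0.44 ± 0.067 (adjusted p = 8.96e-04). Nr1d2, its close relative, peaked later, at ZT 11.8 ± 0.743 h, and less steeply, with an amplitude of 0.16 ± 0.03 (adjusted p = 0.00889).

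Dbp, the output factor that binds D-boxes, had the steepest rhythm of the clock lists. Its Mu libraries rose from 51.3 and 59.4 CPM at ZT 2 to 103 and 120.5 at ZT 10 and fell to 54.4 and 46.7 at ZT 22. Its Hu libraries went from 68.99 and 74.1 CPM through 86.8 and 113 to 49.1 at the same times. All 4 libraries of ZT 10 lay above all 7 of ZT 2 and ZT 22. The amplitude was 0.56 ± 0.062 and the peak at ZT 9.78 ± 0.414 h (adjusted p = 2.63e-05), a 2.16-fold difference between fitted peak and trough. Tef, a related factor, peaked at ZT 13.5 with an amplitude of 0.12 ± 0.013 (adjusted p = 8.24e-04). Nfil3, which competes for the same D-boxes, peaked at ZT 19.9, with 0.21 ± 0.032 (adjusted p = 0.00456). The fitted peaks of Dbp and of its antagonist Nfil3 lay on opposite sides of lights off.

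Repressors of CLOCK and BMAL1 peaked from the late day to the early night. Bhlhe41 (DEC2), a repressor that binds E-boxes, had the smallest p-value of all genes. Its 4 libraries of ZT 10 held 82.97, 87.8, 82.5 and 85.2 CPM and its 3 of ZT 22 65.4, 61.8 and 67.05. No library of ZT 18 or ZT 22 reached the lowest library of ZT 6, 75.7 CPM. Its amplitude was no more than 0.20 ± 0.014, with a peak at ZT 9.85 ± 0.255 h (adjusted p = 4.85e-06). Ciart (CHRONO), which blocks BMAL1, peaked at ZT 10.1, with an amplitude of 0.45 ± 0.059 (adjusted p = 3.43e-04). Its levels were 11.6, 16.4, 10.5 and 12.4 CPM at ZT 10 and 7.23, 6.44 and 6.13 CPM at ZT 22, and these did not overlap. Per1 peaked at ZT 11.1, Per3 at ZT 11.2, Per2 at ZT 12.3 and Cry1 at ZT 14.2. Their amplitudes were 0.25 ± 0.061, 0.22 ± 0.051, 0.29 ± 0.056 and 0.14 ± 0.036, with adjusted p-values of 0.0215, 0.0198, 0.00765 and 0.0416. The range of Per2 was 17.3 to 26.8 CPM at ZT 2 and 26.6 to 33.9 CPM at ZT 10, and the highest library of ZT 2 lay just above the lowest of ZT 10. Cry1 was at 33.8 to 36.5 CPM at ZT 14, above all 18 other libraries, which lay at 25.1 to 31.99 CPM. The call for Cry1 was lost in 12 of 22 fits that left out 1 library. Per1 and Per3 each lost theirs in 4 of 6 fits without a time point, and Per1 and Per2 with ZT as a factor.

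**Figure D2:**
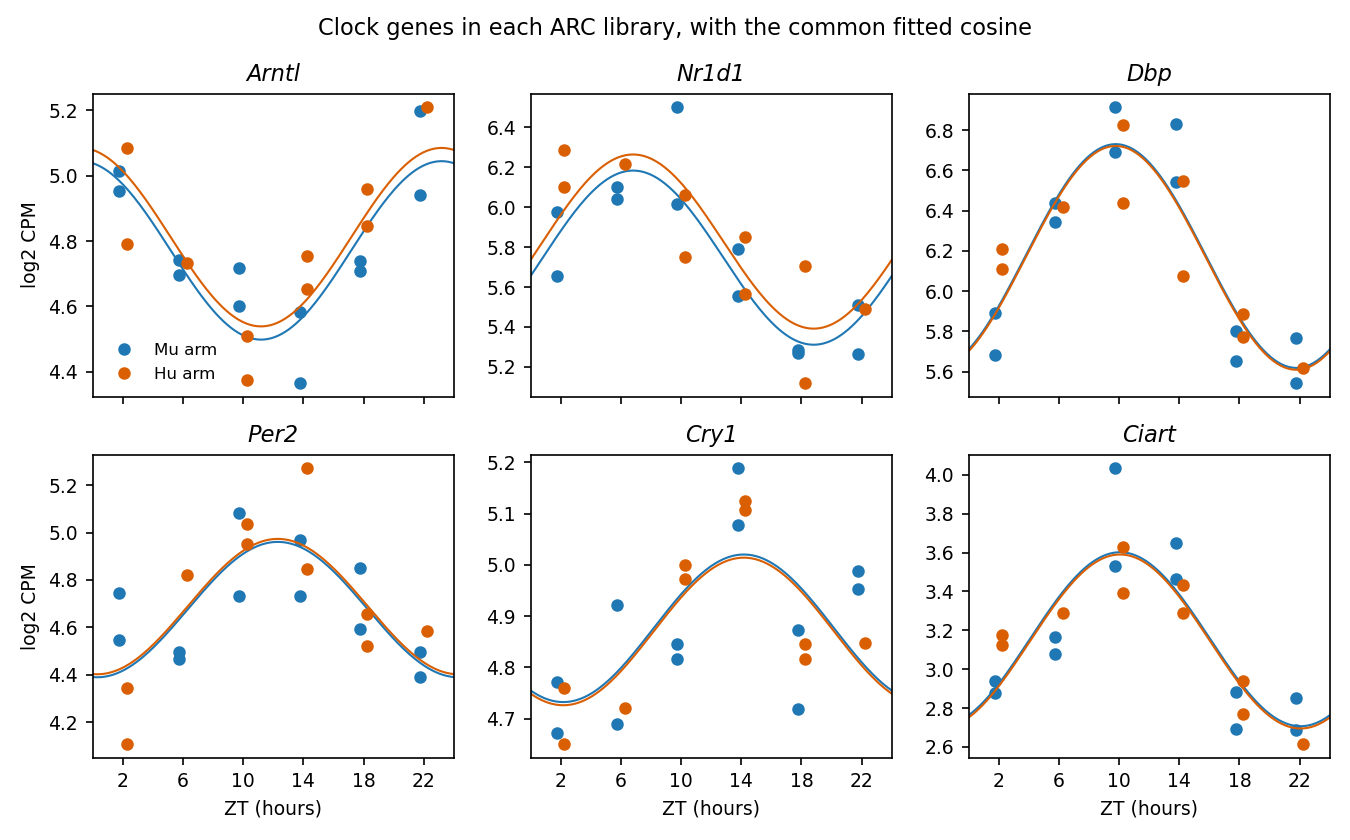
Level of 6 clock genes in each of the 22 ARC libraries (y axis, log2 CPM; x axis, ZT in hours), with Mu libraries in blue, Hu libraries in orange and the common fitted cosine drawn at the mean level of each arm. Arntl has its highest mean at ZT 22 and Nr1d1 its lowest at ZT 18, and the 4 libraries of ZT 14 stand above all others for Cry1.

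The other 16 clock genes did not pass. Clock (amplitude 0.11 ± 0.039, adjusted p = 0.204) and Npas2 (0.23 ± 0.094, adjusted p = 0.254) had fitted peaks at ZT 22.2 and ZT 22.4, within 2 h of that of Arntl, and both were under 0.05 before adjustment. Cry2 had an amplitude of 0.071 ± 0.032 (adjusted p = 0.37) and Hlf one of 0.069 ± 0.11 (adjusted p = 0.874). Csnk1d and Csnk1e, kinases that mark PER proteins for breakdown, had amplitudes of 0.021 ± 0.015 and 0.031 ± 0.018 (adjusted p = 0.715 and 0.608). Rora ran from 77.5 to 304 CPM with no common daily course (0.17 ± 0.19, adjusted p = 0.811).

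Promoters of 6 of the called genes are shown because each holds a motif of a factor named among these clock and hormone pathways. Each line gives the 250 bases before the annotated start of transcription, 5′ to 3′ on the gene's strand, from RefSeq on GRCm38.p6, with matches in capitals. The motifs are the E-box CACGTG bound by CLOCK and BMAL1 (Ciart, Bhlhe41, Per1), the D-box TTATGTAA or TTACGTAA (Per3), the ROR element TAGGTCA or TGGGTCA, bound by REV-ERB and ROR receptors (Nfil3), and the glucocorticoid receptor element, GNACA and TGTNC with 3 bases between (Map3k6).
Ciart: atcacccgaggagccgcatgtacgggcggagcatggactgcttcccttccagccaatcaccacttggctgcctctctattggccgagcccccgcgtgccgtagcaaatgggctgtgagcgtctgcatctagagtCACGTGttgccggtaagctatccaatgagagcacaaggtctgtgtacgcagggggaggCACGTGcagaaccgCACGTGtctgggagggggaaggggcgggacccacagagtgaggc
Bhlhe41: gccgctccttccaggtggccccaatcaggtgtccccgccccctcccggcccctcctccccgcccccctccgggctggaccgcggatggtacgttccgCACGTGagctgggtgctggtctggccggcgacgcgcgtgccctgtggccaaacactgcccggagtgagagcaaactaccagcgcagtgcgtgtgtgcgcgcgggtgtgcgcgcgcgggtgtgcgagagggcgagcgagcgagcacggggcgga
Per1: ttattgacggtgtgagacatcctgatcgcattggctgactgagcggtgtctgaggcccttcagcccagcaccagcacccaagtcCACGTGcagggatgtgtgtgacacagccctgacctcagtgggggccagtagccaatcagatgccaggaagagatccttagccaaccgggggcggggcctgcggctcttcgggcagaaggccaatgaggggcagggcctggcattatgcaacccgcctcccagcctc
Per3: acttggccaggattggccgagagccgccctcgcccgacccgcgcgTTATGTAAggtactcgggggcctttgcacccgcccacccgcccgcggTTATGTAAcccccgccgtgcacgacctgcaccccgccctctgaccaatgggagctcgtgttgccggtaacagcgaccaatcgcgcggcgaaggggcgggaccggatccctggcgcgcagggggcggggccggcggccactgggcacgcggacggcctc
Nfil3: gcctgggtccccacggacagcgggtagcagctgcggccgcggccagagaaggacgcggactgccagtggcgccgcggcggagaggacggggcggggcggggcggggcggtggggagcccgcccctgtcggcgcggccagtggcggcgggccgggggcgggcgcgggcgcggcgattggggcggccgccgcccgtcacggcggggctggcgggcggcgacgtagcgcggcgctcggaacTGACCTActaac
Map3k6: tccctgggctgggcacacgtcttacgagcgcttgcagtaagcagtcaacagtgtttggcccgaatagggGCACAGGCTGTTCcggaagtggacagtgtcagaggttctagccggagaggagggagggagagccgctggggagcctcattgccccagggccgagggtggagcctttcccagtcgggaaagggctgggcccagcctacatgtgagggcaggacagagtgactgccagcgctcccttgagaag
They lie at chr3:95882229-95882478 (minus strand), chr6:145865421-145865670 (minus), chr11:69098699-69098948 (plus), chr4:151044666-151044915 (minus), chr13:52981040-52981289 (minus) and chr4:133240568-133240817 (plus). The Ciart stretch holds 3 E-boxes and the Per3 stretch 2 D-boxes. The TGACCTA in capitals before the start of Nfil3 is TAGGTCA on the other strand. No 2 matches overlap in these stretches.

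Both strands of windows of 300 bases, the 250 before and the 50 after each start, were searched, and 550 of the 683 called genes had at least 1 window. The E-box was in 7.15% of all 32851 windows, in 9.36% of the windows of genes tested and in 9.71% of those of called genes. It was in 14.6% of the 185 windows of called genes with a peak between ZT 6 and 12. Among the called clock genes of that span, Ciart, Bhlhe41 and Per1 had an E-box. Dbp, Per3, Nr1d1 and Nr1d2 had none in their windows. The E-box was in 5.85% of the 188 windows of called genes with a peak between ZT 18 and 24. Of 14 windows of called clock genes 6 held an E-box. The D-box was in 1.06% of all windows, in 0.746% of those of genes tested and in 0.58% of those of called genes. The same 3 shares were 1.79%, 2.84% and 3.33% for the CRE TGACGTCA and 6.45%, 4.97% and 5.65% for the ROR element. For the glucocorticoid receptor element they were 0.475%, 0.369% and 0.725%. A heat shock element is made of the triplets GAA, TTC and GAA with 2 bases between each. It was in 0.603% of all windows, in 0.47% of those of genes tested and in 1.01% of those of called genes. Of the 13 windows of called heat shock genes 3 held it, those of Chordc1 and Hsph1. The glucocorticoid receptor element was in 2 of 12 windows of called glucocorticoid-responsive genes, those of Map3k6 and Mt1. These are matches of letters, and binding was not measured.

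Genes induced by cooling and genes induced by heat or misfolded protein peaked at different times. CIRBP and RBM3 are RNA-binding proteins whose mRNAs accumulate under mild cooling, and both were called (2 of 2). Cirbp was highest in the second part of the day. It was at 121, 110.1 and 109 CPM in the 3 libraries of ZT 6 and at 114, 117, 118 and 116 in the 4 of ZT 10, against 58.97, 65.9 and 82.7 at ZT 22. The 3 levels at ZT 22 lay below all 7 at ZT 6 and ZT 10. Its peak was at ZT 9.18 ± 0.473 h, with an amplitude of 0.34 ± 0.044 (adjusted p = 2.93e-04). Rbm3 peaked about 3 h later, at ZT 12.5 ± 0.491 h, with an amplitude of 0.46 ± 0.057 (adjusted p = 1.85e-04). Its Mu libraries were at 121 and 94.8 CPM at ZT 14 and 59.7 and 43.9 CPM at ZT 22, and its Hu libraries at 87.001 and 95.02 CPM at ZT 14 and 58.9 CPM at ZT 22. No library of ZT 22 reached the lowest of ZT 14.

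Of 20 genes of heat shock proteins, their partners and the factor Hsf1 (with Hspd1 and Hspe1 of mitochondria) 11 passed, beside 4.53% of all genes, and 17 of 20 were under 0.05 before adjustment. Of the 11, 9 peaked between ZT 18 and 24 and 2 between ZT 12 and 18. Their median amplitude over all 20 tested was 0.16. Hsph1 (HSP110), an exchange factor for HSP70, was at 305, 287, 299.5 and 293 CPM at ZT 10 and at 437, 428 and 385 CPM at ZT 22. The 3 libraries of ZT 22 lay above all 11 of ZT 6, 10 and 14. It peaked at ZT 21.9 ± 0.533 h with an amplitude of 0.22 ± 0.031 (adjusted p = 6.09e-04). Dnajb1 (HSP40), which hands clients to HSP70, was at 53.04 to 64.99 CPM at ZT 10 and 77.2 to 90.5 CPM at ZT 14, and stayed at 69.2 to 83.8 and 71.3 to 82.1 CPM at ZT 18 and 22. All 11 libraries from ZT 14 to 22 lay above all 11 from ZT 2 to 10. Its fitted peak was at ZT 17.5, with an amplitude of 0.24 ± 0.038 (adjusted p = 0.00144).

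Further called members were Chordc1 (ZT 19.1, amplitude 0.25 ± 0.037), Stip1 (ZT 21.6, 0.20 ± 0.028), Hspa8 (ZT 20.9, 0.16 ± 0.026) and Ahsa1 (ZT 20.04, 0.16 ± 0.029), all partners or members of the HSP70 and HSP90 machines. Dnaja1, Hspa1b, Hspa4, Fkbp4 and Cryab had larger adjusted p-values, from 0.0116 to 0.041. The inducible Hspa1b was lowly expressed, at 4.54 to 10.5 CPM, and it shares nearly identical sequence with Hspa1a, so that its counts are uncertain. Without Mu ZT 6 replicate 1 the list had 7 called genes, and over all fits that left out 1 library it had 7 to 13. It had 4 without the libraries of ZT 10, 13 without those of ZT 18, and 7 with the red blood cell genes as a covariate, a fit added after the data had been seen.

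Chaperones of the endoplasmic reticulum, which fold secreted proteins and rise in the unfolded protein response, peaked in the same part of the night. Of 20 listed genes 13 passed, beside 4.53% of all genes, and the 7 others were over 0.05 before adjustment as well. Of the 13, 10 peaked between ZT 18 and 24 and 3 between ZT 12 and 18. Hspa5 (BiP), the main chaperone there, was at 415, 356, 481 and 446 CPM at ZT 10 and at 597, 587 and 545 CPM at ZT 22, and these libraries did not overlap. It peaked at ZT 19.6 ± 0.648 h with an amplitude of 0.22 ± 0.039 (adjusted p = 0.00334). Calr, the lectin chaperone calreticulin, was at 281 to 316 CPM at ZT 10 and at 391 to 418 at ZT 22, with a peak at ZT 21.6 (0.18 ± 0.031, adjusted p = 0.00308). Xbp1, a transcription factor that drives such genes, peaked at ZT 17.9 (0.21 ± 0.042, adjusted p = 0.00739), and Herpud1, which acts in the removal of misfolded proteins, at ZT 14.9 (0.17 ± 0.031, adjusted p = 0.00456). The steepest was Sdf2l1, at 0.34 ± 0.086, with 1 of the larger p-values (adjusted p = 0.0355). Manf, Creld2, Dnajb11, Dnajc3, Hsp90b1, Pdia3, Pdia4 and Pdia6 were the other 8, with peaks from ZT 16.7 to ZT 22.5. Leaving out 1 library gave 9 to 13 called genes in this list, the fewest without Hu ZT 18 replicate 1. Without the libraries of ZT 10 it had 5, and without those of ZT 18 it had 10.

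**Figure D3:**
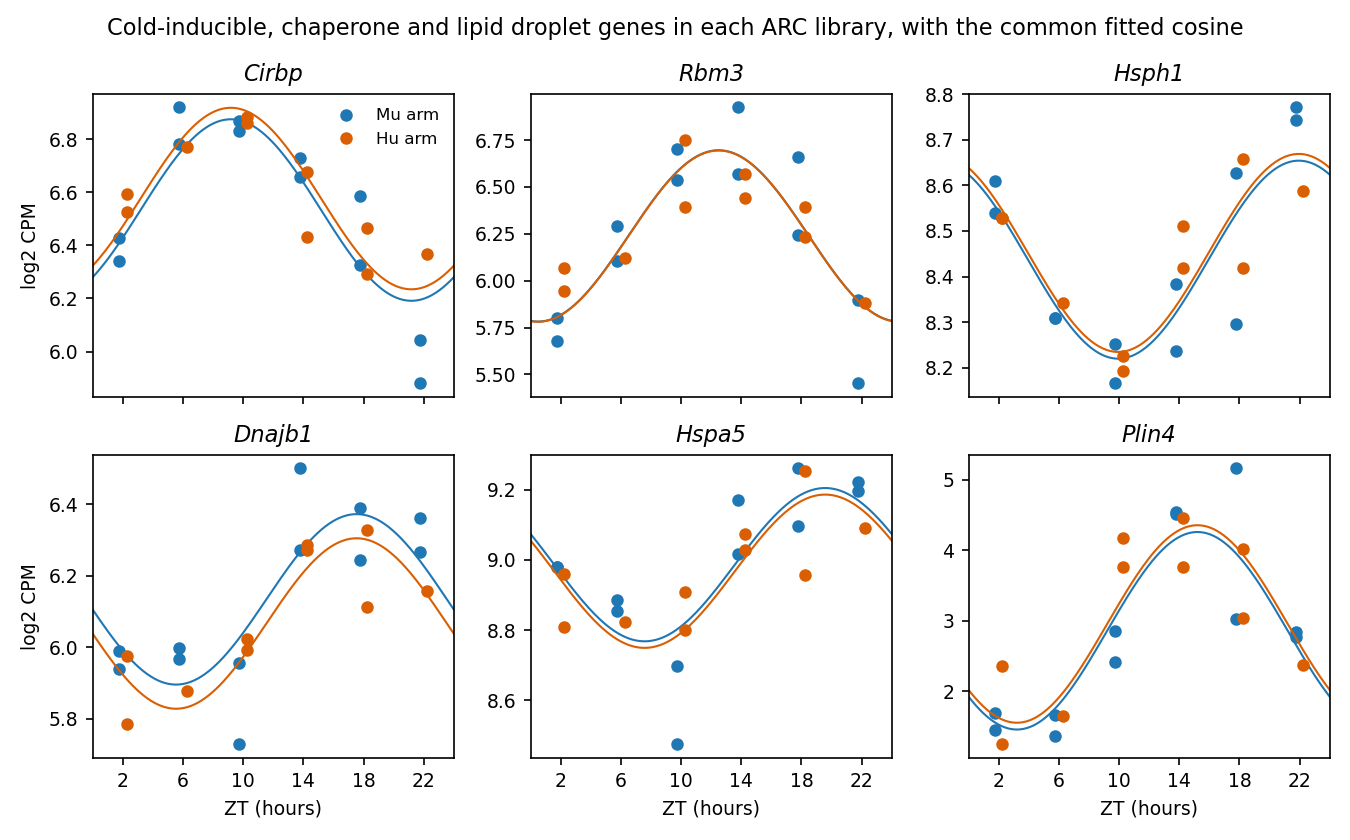
Level of 6 genes in each of the 22 ARC libraries (y axis, log2 CPM; x axis, ZT in hours; Mu blue, Hu orange; lines, the common fitted cosine at the mean level of each arm). The cold-inducible Cirbp and Rbm3 peak at ZT 9.18 and ZT 12.5, the chaperones Hsph1, Dnajb1 and Hspa5 peak at ZT 21.9, 17.5 and 19.6, and the lipid droplet gene Plin4 peaks at ZT 15.2.

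Genes known to respond to glucocorticoids, the adrenal hormones that rise before the active phase, peaked mainly in the first part of the night. Of 17 listed genes 9 passed, beside 4.53% of all genes, 6 with a peak between ZT 12 and 18, 2 later and 1, Mt1, at ZT 11.6. Plin4, a coat protein of lipid droplets, had the largest amplitude of all called genes, 1.40 ± 0.18, a 6.98-fold difference between fitted peak and trough (adjusted p = 2.53e-04). Its Mu libraries were at 2.56 and 3.17 CPM at ZT 6, 23.2 and 22.8 at ZT 14 and 35.7 and 8.12 at ZT 18. Its Hu libraries were at 3.14 CPM at ZT 6, 13.6 and 22.03 at ZT 14 and 8.24 and 16.2 at ZT 18. Both libraries of each arm at ZT 14 lay above every library of ZT 2, 6 and 22, while those of ZT 18 spread more than 4-fold. At ZT 10 the Hu libraries, at 17.9 and 13.6 CPM, lay within the range of the Hu libraries of ZT 14. The Mu libraries of ZT 10 were lower, at 5.34 and 7.24 CPM.

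Tsc22d3 (GILZ), a mediator of the anti-inflammatory action of glucocorticoids, was at 56.8, 49.5, 59.6 and 66.03 CPM at ZT 2 and at 114, 96.3, 108 and 108 CPM at ZT 14, without overlap. It peaked at ZT 14.9 ± 0.529 h, with an amplitude of 0.42 ± 0.056 (adjusted p = 3.00e-04). Fkbp5, a co-chaperone that lowers the affinity of the glucocorticoid receptor, was at 32.4 to 33.3 CPM at ZT 6 and 46.1 to 62.7 CPM at ZT 14. It peaked at ZT 14.8, with an amplitude of 0.32 ± 0.059 (adjusted p = 0.00313). Cdkn1a (p21), an inhibitor of the cell cycle, peaked later, at ZT 19.5 (0.44 ± 0.063, adjusted p = 6.09e-04). Zbtb16 (ZT 14.02, 0.52 ± 0.12), the kinase gene Map3k6 (ZT 13.6, 0.62 ± 0.13), Sult1a1 (ZT 18.2, 0.61 ± 0.11) and Errfi1 (ZT 16.2, 0.14 ± 0.031) were the others called. Map3k6 was near 1 CPM, at 0.55 to 2.78. Mu ZT 18 replicate 1 was the highest library for Plin4, Cdkn1a, Map3k6 and Sult1a1. Without that library the list had 11 called genes, and over all fits that left out 1 library it had 8 to 11. The red blood cell genes had a fitted peak of their own close to these, at ZT 15.1 with an amplitude of 0.62 ± 0.25 (SE) for their sum. All 4 tested were under 0.05 before adjustment and 0 after it. With their score as a covariate 7 genes of the list were called, and Zbtb16, Map3k6 and Errfi1 were not among them. The part of blood in the result was not tested otherwise.

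**Figure D4:**
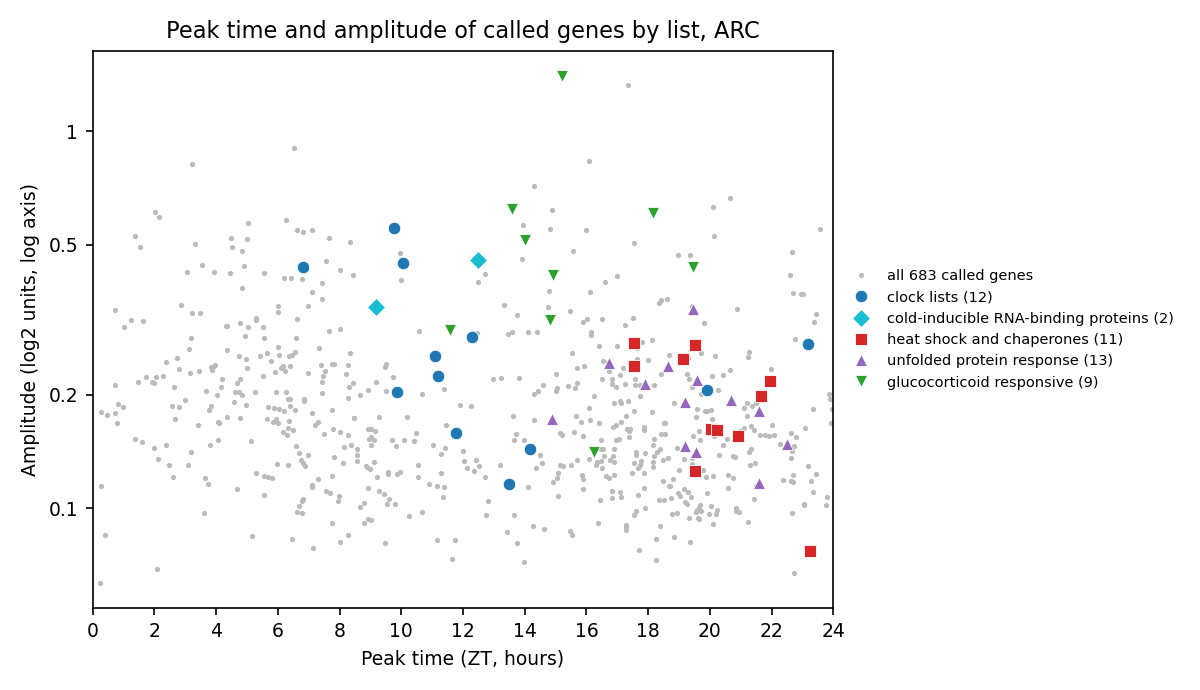
Time of the fitted peak (x axis, ZT in hours) and amplitude (y axis, log2 units on a log axis) of the 683 called genes in ARC, with members of the lists in colour. The 13 unfolded protein response and 11 heat shock genes sit between ZT 14 and 24, the 9 glucocorticoid-responsive genes lie mostly higher, and the 12 clock genes are spread around the day.

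Other genes with the lowest p-values by time of peak included genes known from vessels, glia, lipid handling and RNA processing. Among those with a peak from ZT 0 to 6, Fabp7, a fatty acid-binding protein of astrocytes and tanycytes, had the largest amplitude, 0.82 ± 0.098 (adjusted p = 9.13e-05). Its Mu libraries held 57.03 and 55.6 CPM at ZT 2 and 13.4 and 17.8 at ZT 18, and its Hu libraries 41.04 and 46.1 at ZT 2 and 24.3 and 14.01 at ZT 18. The 4 levels at ZT 2 lay above all of those at ZT 10, 14, 18 and 22. Id2, a helix-loop-helix inhibitor of transcription factors, was at 47.7 to 58.7 CPM at ZT 2 and 30.4 to 34.4 CPM at ZT 14 (0.34 ± 0.034, peak ZT 0.728, adjusted p = 1.87e-05). Mmp14, a membrane-bound matrix protease, peaked at ZT 1.37 (0.53 ± 0.071, adjusted p = 2.83e-04), and Mcam, an adhesion molecule of vessels, at ZT 3.49 (0.33 ± 0.039, adjusted p = 2.50e-04). The zinc exporter gene Slc30a1 had an amplitude of 0.19 ± 0.023 and a peak at ZT 4.58 (adjusted p = 3.77e-04), and Tmem44 one of 0.32 ± 0.041 at ZT 1.26 (adjusted p = 3.77e-04).

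Among night-peaking genes, Ifit3b, an interferon-induced gene, was at 6.22 to 7.52 CPM at ZT 2 and 12.4 to 15.98 CPM at ZT 14, without overlap, with a peak at ZT 13.9 (0.46 ± 0.044, adjusted p = 1.41e-05). It belongs to a family of near-identical copies, so its counts are uncertain. Of 13 Ifit and Ifi genes 1 other was called (Ifit1bl2, adjusted p = 0.0435), beside 4.53% of all genes. Mfsd2a, the transporter that brings omega-3 lipids across the blood-brain barrier, was at 16.8 to 18.2 CPM at ZT 6 and 25.7 to 36.4 CPM at ZT 18. Its peak was at ZT 16.98 ± 0.383 h with an amplitude of 0.41 ± 0.041 (adjusted p = 1.41e-05). Paqr8, a membrane progestin receptor, peaked at ZT 17.8 (0.28 ± 0.037, adjusted p = 3.77e-04). The secreted protease gene Htra1 peaked at ZT 19.7 (0.26 ± 0.033, adjusted p = 3.73e-04) and Fam107a at ZT 18.6 (0.36 ± 0.05, adjusted p = 3.95e-04). Dtx4 peaked at ZT 23.8 (0.20 ± 0.027, adjusted p = 5.63e-04). Klf15, a Krüppel-like factor, was at 18.5 to 23.4 CPM at ZT 2 and 28.995 to 33.4 at ZT 14, with a peak at ZT 14.1 (0.29 ± 0.04, adjusted p = 4.10e-04). It was 1 of 2 called among 15 such factors, beside 4.53% of all genes.

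Regulators of splicing were called at several times of day. Of 13 SR-type factors 5 passed, beside 4.53% of all genes: Tra2a (ZT 18.7, 0.25 ± 0.035), Tra2b (ZT 15.7, 0.18 ± 0.03), Srsf2 (ZT 14.1, 0.11 ± 0.018), Srsf10 (ZT 15.5, 0.087 ± 0.019) and, in the day, Srsf5 (ZT 4.77, 0.17 ± 0.042). Tra2a was at 89.4 to 101.4 CPM at ZT 6 and 117 to 139 CPM at ZT 18, without overlap (adjusted p = 4.10e-04). The call was lost in 12 of 22 fits that left out 1 library for Srsf10, which also lost it with the replicate number as a block, and in 9 for Srsf5. Of 20 hnRNP genes 3 passed (Hnrnpdl, Hnrnpm and Hnrnpc). Hnrnpdl peaked at ZT 7.54 (0.23 ± 0.03, adjusted p = 3.95e-04) and Hnrnpm about 12 h later, at ZT 19.6 (0.16 ± 0.02, adjusted p = 6.09e-04). The lists of SR, hnRNP, Krüppel-like and Ifit genes were chosen after their values had been seen.

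The other genes of large amplitude were lowly expressed. Hif3a, an oxygen-sensing factor, had an amplitude of 0.71 ± 0.15 at 2.47 to 16.1 CPM, Kirrel2 one of 0.84 ± 0.15 at 1.004 to 6.29 CPM and Fam83d one of 0.62 ± 0.13 at 0.975 to 5.18 CPM. All 3 peaked between ZT 14 and 17, near the red blood cell genes at ZT 15.1. Mu ZT 18 replicate 1 was the highest library for Hif3a and Fam83d, and Hu ZT 10 replicate 1 for Kirrel2. Fmo2 peaked at ZT 13.95 (0.57 ± 0.13), Gpr179 at ZT 2.01 (0.61 ± 0.11) and Lrrc29 at ZT 6.25 (0.58 ± 0.089). With the blood score as a covariate Hif3a, Kirrel2, Fam83d and Fmo2 were not called. Apoa1, the protein of high-density lipoprotein made mainly by liver and gut, had the second largest amplitude, 1.33 ± 0.38 (adjusted p = 0.00416). It was named after its values had been seen. It was at 2.74, 3.69, 8.43 and 2.73 CPM in the 4 libraries of ZT 18 and at 0.108 to 1.51 CPM in the other 18. These are the 4 libraries with the most hepatocyte transcripts, and without them Apoa1 was not called (edgeR adjusted p = 0.284).

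Peptides and receptors for which the ARC is known were examined next. Of 15 neuropeptide and enzyme genes 0 passed in edgeR and 0 in DESeq2, and 2 were under 0.05 before adjustment. A list of 16 genes held receptors for leptin, insulin, ghrelin and other feeding signals or hormones, with Bdnf and Socs3, which are not receptors. Of these 16 genes 0 passed in either tool, with 1 under 0.05 before adjustment. With 4.53% of all genes called, lists of this size would hold about 1 called gene or fewer at that share, so these counts do not set them apart. Pomc, the precursor of the satiety peptide alpha-MSH, had an amplitude of 0.50 ± 0.17 (adjusted p = 0.0863). Its 3 libraries of ZT 6 alone ranged from 30.2 to 119.5 CPM, and its 4 of ZT 18 from 18.5 to 24.7 CPM. Agrp, which encodes a peptide that drives feeding, had 0.25 ± 0.24 (adjusted p = 0.424) and Npy 0.22 ± 0.19 (adjusted p = 0.422). For both, Mu ZT 18 held the highest and the lowest of all 22 libraries, at 26.5 and 2.07 CPM for Agrp and 67.7 and 8.05 CPM for Npy. With SEs of this size, an amplitude like that of Hspa5 was not detectable in Agrp or Npy.

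The other pathway lists had 0 to 2 called genes each, beside 4.53% of all genes. Of 20 immediate early genes, which follow neuronal activity, 2 passed, Crem (ZT 19.3, 0.22 ± 0.043, adjusted p = 0.0111) and Homer1 (ZT 18.5, 0.10 ± 0.024, adjusted p = 0.0432). The call for Homer1 was lost in 16 of 22 fits that left out 1 library. Of 19 cholesterol genes 1 passed, Lss (ZT 8.13, 0.13 ± 0.033, adjusted p = 0.0453), and its call was lost in 16 of the 22. Of 12 genes of fasting and fatty acid oxidation 1 passed, Angptl4, an inhibitor of lipoprotein lipase, at ZT 22.96 (0.37 ± 0.068, adjusted p = 0.00566). Among 77 cytosolic ribosomal proteins 0 passed (1 under 0.05 before adjustment), as among 73 nuclear genes of oxidative phosphorylation (0), 43 collagens (4) and 8 genes of thyroid hormone handling (2). Of 37 proteasome subunits 1 passed, Psmd3, and 10 were under 0.05 before adjustment.

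Markers of cell types were fitted in the same way. Of 11 neuron markers 0 passed, with 1 under 0.05 before adjustment, and their sum stayed between 4960 and 5830 CPM. Of 12 oligodendrocyte markers 4 passed, beside 4.53% of all genes, and their peaks lay at different times. Cldn11, a tight junction gene of myelin, peaked at ZT 15.7 (0.23 ± 0.043, adjusted p = 0.00456), Mal at ZT 15.8 and Ermn at ZT 19.05, whereas Opalin, a gene of mature oligodendrocytes, peaked at ZT 4.83 (0.38 ± 0.068, adjusted p = 0.0033). Leaving out 1 library cost Mal its call in 16 of 22 fits and Ermn in 10. Of 10 astrocyte markers 2 passed, Fgfr3 (ZT 17.3, 0.09 ± 0.015) and Aldh1l1 (ZT 17.7, 0.13 ± 0.028). Fabp7 was the 1 called of 11 tanycyte markers, and Cldn5, a tight junction gene of endothelium, the 1 called of 11 vessel markers (ZT 22.6, 0.42 ± 0.096, adjusted p = 0.0252). Of 13 markers of neighbouring nuclei Prok2, an output peptide of the central pacemaker, was called at 0.156 to 1.65 CPM (ZT 6.53, 0.91 ± 0.20, adjusted p = 0.0121). Scores of 3 marker lists (oligodendrocyte, ARC neuron and choroid plexus) entered together as covariates gave 846 called genes, 569 of them among the 683.

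The next question was whether the 2 arms share these rhythms. In a model with a separate rhythm per arm, 0 of 15079 genes (0%) differed between arms in edgeR, as in DESeq2, and 269 (1.78%) were under 0.05 before adjustment. The smallest adjusted p rounded to 1. The share of 1.78% is under the rate that a threshold of 0.05 would give with no difference at all, so the test was conservative. A gene not called here is not shown to have the same rhythm in both arms. Among the 683 genes 57 (8.35%) were under 0.05 before adjustment. Each arm was then fitted on its own. The Mu libraries alone gave 48 of 14449 genes (0.332%), all 48 among the 683. The Hu libraries alone gave 0 of 14437 (0%), with 926 (6.41%) under 0.05 before adjustment and a smallest adjusted p of 0.0509, for Fabp7. Of the 48 genes called in Mu, 44 (91.7%) were under 0.05 before adjustment in Hu, against 6.41% of all genes. The Hu peak lay within 3 h of the Mu peak for 42 of them (87.5%), against 45.7% of all genes.

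Among those 48 genes the median amplitude was 0.33 in Mu, which chose them, and 0.24 in Hu, and the Hu peak was earlier by a median of 2.11 h. Dbp peaked at ZT 10.4 with 0.65 ± 0.073 in Mu and at ZT 8.84 with 0.47 ± 0.083 in Hu. Plin4 peaked at ZT 15.98 and ZT 13.9, Fabp7 at ZT 4.36 and ZT 1.87, Rbm3 at ZT 12.6 and ZT 12.3, in Mu and Hu. The lowest p-values for a difference between arms were those of Mmp14, Gm20661 and Prex2, and none passed adjustment. Mmp14 had a peak at ZT 2.77 with 0.58 ± 0.066 in Mu and at ZT 23.5 with 0.59 ± 0.072 in Hu (unadjusted p = 2.20e-04). Prex2, an activator of Rac, had peaks at ZT 19.04 and ZT 13.7 (unadjusted p = 3.43e-04). For such genes the common peak lies between those of the arms.

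The suprachiasmatic nucleus (SCN), the central pacemaker, was dissected from the same arms and times and gave the nearest comparison. The labels give SCN and ARC libraries the same numbers, and whether they come from the same mice is not stated. The fit over both regions took every library as separate and did not use such a pairing. In its 22 libraries 228 of 15006 genes (1.52%) had a common daily rhythm, and 118 genes were called in both regions. These are 17.3% of the genes called in ARC and 51.8% of those called in SCN. For 117 of the 118 genes the peaks lay within 3 h of each other, and the SCN peak was earlier by a median of 0.095 h. Median amplitudes over the 118 were 0.26 in SCN and 0.22 in ARC. Over all 677 ARC genes tested in SCN, called there or not, 519 peaks (76.7%) lay within 3 h, and median amplitudes were 0.14 in SCN and 0.17 in ARC, which chose them. The share within 3 h was not taken over all genes tested in both regions, so these counts have no background beside them. In 1 fit over both regions 0 of 15424 genes (0%) had a different rhythm in edgeR, as in DESeq2, and 1278 (8.29%) were under 0.05 before adjustment. Of the 683 genes 86 (12.6%) were. The smallest adjusted p was 0.591, and the lowest p-values were those of 4933403O08Rik, Myh2 and Neurod6, none of them called in ARC. A gene called in ARC but not in SCN is not shown to differ between them. The SCN count itself moved from 109 without Mu ZT 22 replicate 1 to 445 without Mu ZT 10 replicate 2.

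**Figure D5:**
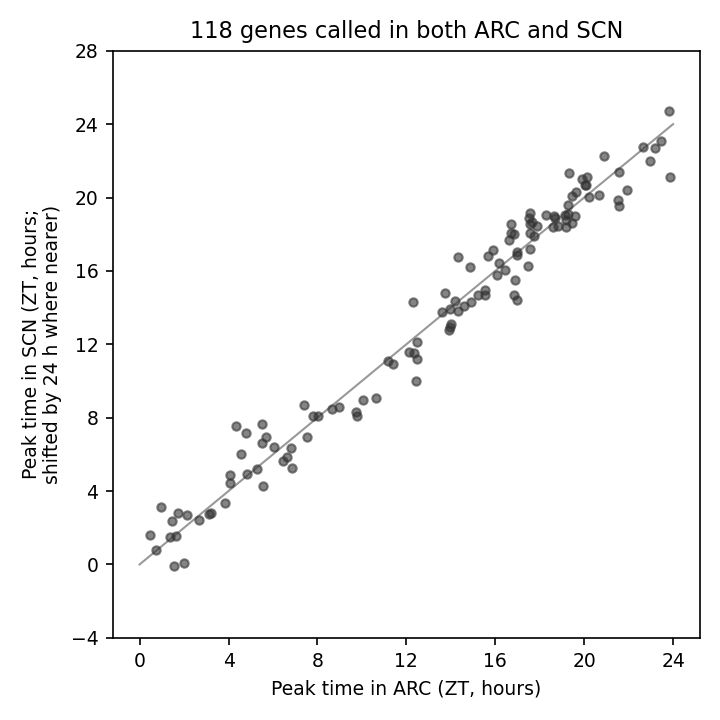
Time of the fitted peak in SCN (y axis, ZT in hours) against that in ARC (x axis) for the 118 genes called in both; the line marks equal times, and SCN times were moved by 24 h where that brought them nearer. Points lie along the line, with 117 of 118 within 3 h of it.

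Plin4 had an amplitude of 1.42 ± 0.19 and a peak at ZT 14.7 in SCN (adjusted p = 8.24e-04), and Fabp7 one of 0.85 ± 0.10 at ZT 2.81 (adjusted p = 3.41e-04). Hspa5 was at 0.40 ± 0.058 and ZT 19.01 (adjusted p = 0.00133) and Dnajb1 at 0.29 ± 0.041 and ZT 18.1 (adjusted p = 0.00183). Bhlhe41, first in ARC, had an amplitude of 0.09 ± 0.051 in SCN (adjusted p = 0.438), a difference that did not pass (unadjusted p = 0.0589, adjusted p = 0.591). Apoa1 had too few counts in SCN to be tested.

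In skeletal muscle, 1903 of 14197 genes (13.4%) had a common rhythm in 27 libraries. Of the 683 ARC genes 624 were tested there, and 166 were called in both tissues, 24.3% of the genes called in ARC and 8.72% of those called in muscle. Peaks lay within 3 h for 111 of the 166 and within 6 h for 152, and the muscle peak was earlier by a median of 0.907 h. Here too the share over all genes tested in both tissues was not taken. All 12 clock genes called in ARC had larger fitted amplitudes in muscle, 0.45 to 1.88, than in ARC, 0.12 to 0.56. The amplitude of Arntl was 1.48 ± 0.25 in muscle and 0.27 ± 0.038 in ARC, that of Dbp 1.81 ± 0.32 and 0.56 ± 0.062, and that of Per1 1.60 ± 0.20 and 0.25 ± 0.061. Plin4 went the other way, with 0.52 ± 0.10 in muscle and 1.40 ± 0.18 in ARC. Differences between ARC and muscle were not tested.

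A second component with a period of 12 h was added last. It passed in 0 of 15079 genes (0%) in edgeR and in 3 in DESeq2, with 662 (4.39%) under 0.05 before adjustment and a smallest adjusted p of 0.129. Apoh, Nr4a3 and Fos had the lowest p-values. Fos, a marker of neuronal activity, was at 37.997, 19.9, 18.5 and 16.7 CPM at ZT 14 and at 13.4, 10.8, 23.2 and 11.96 at ZT 2, against 6.20 to 8.40 CPM at ZT 6 and 5.64 to 9.29 at ZT 10 (unadjusted p = 2.57e-05, adjusted p = 0.129). Its 4 libraries of ZT 14 lay above all of those at ZT 6, 10, 18 and 22. Nr4a3, another gene induced by activity, had its highest means at the same 2 times, with libraries at 7.30 to 8.65 and 5.74 to 7.51 CPM (unadjusted p = 2.11e-05). Apoh, a plasma protein of hepatocytes, was at 1.03, 0.844, 1.73 and 1.77 CPM at ZT 18 and at 0.156 to 0.594 CPM in the other libraries, at the time at which the hepatocyte genes were high.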

How the data were processed

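RNA was extracted with RNeasy columns and made into strand-specific libraries, per the labels' protocols. The authors deposited whole-number counts per gene for muscle, SCN and ARC in 1 table. STAR is named in the submitters' processing notes, while the counting program and the build used for this table are not given in the sources used here. Of 20415 rows, 20329 matched a gene symbol. All 22 ARC columns were mapped to groups by name, 1 of them without a replicate number (Hu ZT 22).

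Counts were analysed with edgeR 4.0.16 in R 4.3.3: TMM scaling, the default filter on low counts with arm as group, and the quasi-likelihood F test of a 24 h cosine and sine beside the arm. P-values were adjusted by Benjamini-Hochberg over all genes tested, at a threshold of 0.05. Amplitude and peak time came from least squares on log2 CPM (prior count 2), with SE by the delta method. The same fit was run on SCN and muscle. The steps were tested on simulated data. Of genes simulated with an amplitude of 0.2, 61 of 99 (61.6%) were called, and of those with 0.5, 93 of 100. Of 14843 genes simulated without a rhythm 8 were called. Alternatives included DESeq2 1.42.0, other scaling, no filter, time points or libraries left out, and the replicate number as a block.

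Genes were named by rule: all genes of the 5 clock lists, the 6 genes with the smallest p in each 6 h span of peak times, the 10 largest amplitudes with a median of at least 1 CPM, called members of the pathway lists, and the 3 genes with the smallest p for each difference. Called cell markers, splicing, Krüppel-like and Ifit genes other than Tra2a, Hnrnpdl, Hnrnpm and Ifit3b, and Apoa1, Psmd3 and Hnrnpc, were named after their values were seen. The members and lists were chosen with earlier results of these data known.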

Additional observations from a re-analysis of the deposited data

How the results depend on the processing

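The number of genes with a common ARC rhythm, 683, went to 1118 in DESeq2 (681 of the 683 among them), to 154 with ZT as a factor of 6 levels, to 202 at an adjusted p of 0.01, and to 340 with the blood marker score as a covariate, which was added after the data had been seen. The arms alone gave 48 (Mu) and 0 (Hu). Leaving out a time point gave 246 (ZT 2), 177 (ZT 6), 287 (ZT 10), 519 (ZT 14), 542 (ZT 18) and 306 (ZT 22). In the same order, 235, 177, 273, 425, 408 and 299 of these were among the 683. Leaving out 1 library gave 429 (without Mu ZT 6 replicate 1) to 814, with 449 without Hu ZT 18 replicate 1. These fits have fewer libraries, and other causes were not tested. DESeq2 size factors (679), no filter (691), no arm term (703) and 3 cell marker scores (846) stayed within 1.5 times.

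A check for pairing of same-numbered Mu and Hu libraries gave correlations of 0.143 (ZT 2), 0.350 (ZT 10), 0.187 (ZT 14) and -0.159 (ZT 18). The numbers were therefore not taken to pair them. These are not correlations of whole profiles, which ran from 0.980 to 0.994 between libraries. With the replicate number as a block, without the unnumbered library, 618 ARC genes (561 shared), 148 SCN genes and 1601 muscle genes were called.

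For the 12 h component DESeq2 called 3 genes, and leaving out 1 library 0 to 1. For SCN DESeq2 called 806, and leaving out 1 library gave 109 to 445. For ARC against SCN no filter gave 2, and leaving out 1 library 0 to 1. Muscle had 1414 to 2068. No fit called a difference between arms, and none of the 89 called genes that were checked reversed. Psmd3, Hnrnpc and the named genes that were not called were not checked for this. The median amplitude stayed at 0.17 for other prior counts. What depth limits was not tested apart from the filter on low counts.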

Other observations

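Hepatocyte transcripts were found in all 4 ARC libraries of ZT 18, and they included secreted plasma proteins of several kinds. Alb, the gene of serum albumin, was at 13.6 to 46.2 CPM in these libraries and had a median of 0.0967 CPM in the other 18, with a highest value of 8.00. Fgb, a chain of fibrinogen, was at 1.38 to 1.53 CPM at ZT 18 and at most 0.352 elsewhere, and Mup3, a major urinary protein, at 1.23 to 1.85 and at most 0.129. Summed over 14 such genes, Hu ZT 18 replicate 1 held 77.1 CPM, Mu ZT 18 replicate 2 held 46.0, Hu ZT 18 replicate 2 held 37.2 and Mu ZT 18 replicate 1 held 29.96. The next highest ARC library, Mu ZT 14 replicate 2, held 13.85 CPM. SCN libraries of the same time held 1.33 to 2.15 CPM and those of other times 0.665 to 3.15. The source of these transcripts was not tested. Of 89 called genes named in the report, not counting Psmd3 and Hnrnpc, 14 lost their call without the libraries of ZT 18, Apoa1 among them. The count was 34 without ZT 2, 37 without ZT 6, 32 without ZT 10, 21 without ZT 14 and 27 without ZT 22.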
